A study of Mus musculus with 32 samples.

Results

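The proteasome is the protease that degrades most ubiquitin-tagged proteins in the cytosol and nucleus. Its 20S core is a barrel of α and β rings, and the active sites face the inside of the barrel on the β subunits Psmb5, Psmb6 and Psmb7. The 19S regulatory particle sits on the end of the barrel, where its lid and base recognise, unfold and deliver substrates. Interferons are best known here for the immunoproteasome, in which Psmb8, Psmb9 and Psmb10 take the places of the 3 constitutive catalytic subunits and alter the peptides that reach the antigen presentation pathway. Here the constitutive subunits are described in neural stem cells (NSCs) exposed to IFN-β. Members were the protein-coding mouse genes whose symbol is Psma, Psmb, Psmc or Psmd followed by a number, without the immunoproteasome genes Psmb8, Psmb9 and Psmb10 and the thymic gene Psmb11. This gave 35 genes of the 23035 with an entry in the footprint tables. They comprise 8 genes of the α ring, 7 of the β ring, 6 ATPases of the base, 3 other subunits of the base, 8 subunits of the lid and 3 chaperones that assemble the base.

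The NSCs came from the ventricular-subventricular zone of C57BL/6 mice aged 8-12 weeks and were grown in culture. They received IFN-β, or the same volume of vehicle, 48 hours after seeding and were collected 2 h or 14 h later, after 5 min in cycloheximide. The deposited names of all libraries begin with wt, read here as wild type, and the labels name no mutant allele or transgene in these groups. Each of the 4 groups had 4 cultures, and each culture gave a footprint library, in which ribosome-protected fragments are counted in the CDS, and a total RNA library, counted in the whole gene. The p-values of the main tests measure the spread between these cultures, taken as independent. Vehicle and IFN-β cultures of the same replicate number were alike, and only the fits with the replicate number as a block use this pairing.

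The footprint libraries held between 2956297 and 10505108 counts, the fewest in replicate 1 of the IFN-β group at 14 h. All 10 NSC markers, such as Nes, Vim and Sox2, had a mean of at least 1 CPM (counts scaled to the library size after TMM adjustment) in each group, while of 6 microglial markers Aif1 and Cx3cr1 were at 0 in each group and the summed level was 11.8 to 45.5 CPM over all libraries, mostly Itgam and P2ry12. The astrocyte markers moved with treatment at 14 h: their summed level was 929 to 1148 CPM with IFN-β against 489.8 to 597 CPM with vehicle, nearly all of it Aldh1l1, while Gfap had a mean of 0.199 and 1.33 CPM. Of the 2 ependymal markers, Foxj1 had a mean of 19.9 CPM with vehicle and 47.9 CPM with IFN-β at 14 h. Marker levels also differed between times, for which CPM was scaled separately. The astrocyte sum at 2 h was 1346 to 2472 CPM with vehicle and 1342 to 2599 CPM with IFN-β, above both groups at 14 h. The NSC sum with vehicle was 14558 to 17223 CPM at 2 h and 11610 to 13530 CPM at 14 h. The part of these markers in the values below was not tested.

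Of the 35 genes, 34 passed the filter of at least 10 counts in at least 4 libraries. The exception was Psma8, the α subunit of the testis. It had 0 of 57908833 footprints at 2 h and 1 of 59765402 at 14 h, where a count of 0 still allows up to 0.0518 CPM by counting error alone.

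Promoter windows are given as a description of the sequences. Motifs were not compared between the constitutive and the interferon-responsive genes of this pathway, of which Psme1 alone is shown. A pair of short motifs was searched on both strands of the 300 bases around each start site: TGACNNNGC, the core of the antioxidant response element read by the CNC factors Nfe2l1 and Nfe2l2, and TTTC, any 2 bases and a further TTTC, which resembles the element read by interferon-activated complexes. The RefSeq windows (GRCm38.p6) run from 250 bases before to 50 bases after the start and matched 28 of the 35 genes. The first motif was in 12.4% of all 32851 windows and in those of Psmb5, Psmb6, Psmc6, Psmd9 and Psmd12. The second was in 3.44% of all windows and in those of Psmb3, Psmd4 and Psmd9. A match describes the letters in the window and is not evidence of binding. The windows of 2 catalytic subunits, of the ubiquitin receptor Psmd4 and of the interferon-responsive activator Psme1 follow, 5′ to 3′ on the strand of the gene, with the motif in capitals.
Psmb5 (chr14:54617946-54618245, minus strand): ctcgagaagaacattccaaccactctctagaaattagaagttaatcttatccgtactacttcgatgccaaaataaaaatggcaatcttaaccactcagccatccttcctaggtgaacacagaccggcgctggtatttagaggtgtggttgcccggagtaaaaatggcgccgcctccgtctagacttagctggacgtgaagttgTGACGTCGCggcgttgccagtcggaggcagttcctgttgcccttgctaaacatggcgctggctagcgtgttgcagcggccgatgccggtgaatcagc
Psmb6 (chr11:70525107-70525406, plus strand): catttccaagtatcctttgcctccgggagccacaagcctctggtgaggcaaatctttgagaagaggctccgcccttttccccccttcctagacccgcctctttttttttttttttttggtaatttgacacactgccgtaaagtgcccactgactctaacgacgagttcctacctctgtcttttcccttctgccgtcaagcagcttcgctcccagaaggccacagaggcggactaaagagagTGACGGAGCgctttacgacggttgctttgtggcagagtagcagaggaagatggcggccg
Psmd4 (chr3:95042565-95042864, minus strand): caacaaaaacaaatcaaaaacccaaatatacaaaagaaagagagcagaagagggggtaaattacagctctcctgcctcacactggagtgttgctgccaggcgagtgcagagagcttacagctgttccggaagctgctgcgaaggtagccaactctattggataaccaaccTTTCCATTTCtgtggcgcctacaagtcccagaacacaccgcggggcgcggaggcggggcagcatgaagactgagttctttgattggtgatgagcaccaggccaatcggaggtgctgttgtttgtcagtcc
Psme1 (chr14:55578244-55578543, plus strand): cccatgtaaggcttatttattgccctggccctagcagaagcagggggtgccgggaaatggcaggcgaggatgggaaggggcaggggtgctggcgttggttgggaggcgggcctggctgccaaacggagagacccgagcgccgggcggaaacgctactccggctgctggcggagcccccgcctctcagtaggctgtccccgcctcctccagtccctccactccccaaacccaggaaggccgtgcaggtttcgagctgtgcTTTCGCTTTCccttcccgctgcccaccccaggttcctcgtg
The motif begins 47 bases before the start site in Psmb5, 9 bases before it in Psmb6 and 80 bases before it in Psmd4, and its first base lies 9 bases past the start site base in Psme1.

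After 2 h of IFN-β the footprints on constitutive subunits were close to those with vehicle. edgeR's quasi-likelihood test called 0 of 34 members at an adjusted p under 0.05, against 7.25% of all 12104 genes tested, and 0 members had an unadjusted p under 0.05. DESeq2 called 0 as well. The log2 fold changes (LFCs) ran from -0.056 for Psmc1 to 0.16 for Psmc6, with a median of 0.039 beside -0.015 over all genes tested, and of -0.0034 beside -0.058 when libraries were scaled by their totals alone. The 95% interval of the LFC lay within 0.5 either side of 0 for all 34 members that were tested, against 49.9% of genes tested, many of which had fewer counts and wider intervals. The median standard error was 0.083 for members and 0.15 for all genes. The LFC was above 0 in 29 of 34 members, which share their libraries, and in 5617 of all 12104 genes tested.

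**Figure D1:**
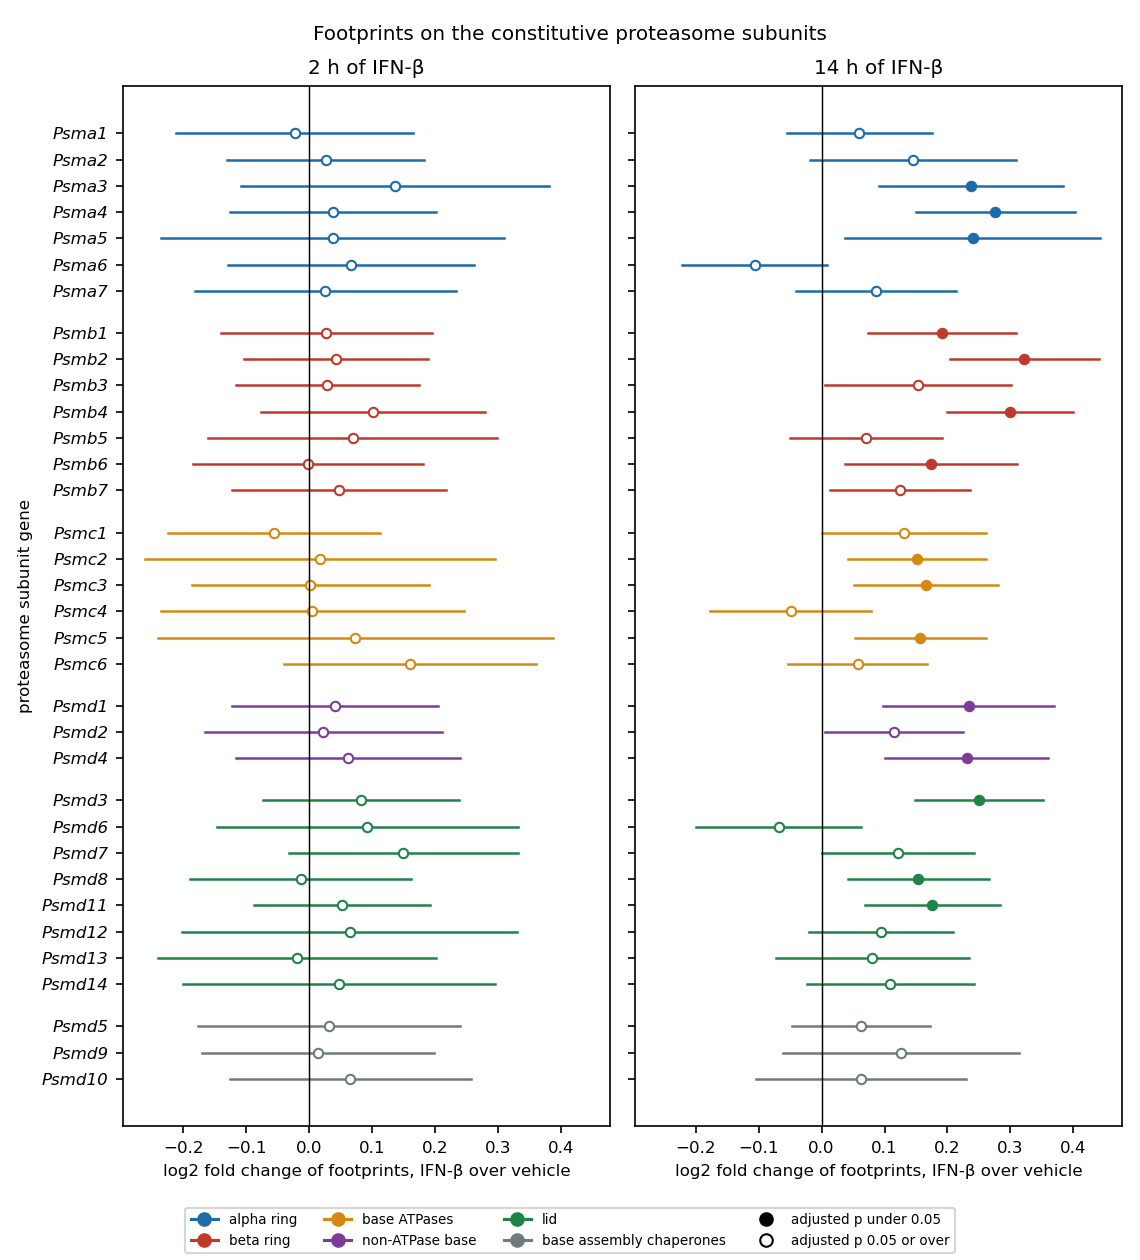
LFC of footprints (x axis, log2, IFN-β over vehicle) of the 34 tested subunits, one per line, coloured by subcomplex. Points are edgeR estimates, lines their 95% intervals from 4 against 4 libraries, and filled points have an adjusted p under 0.05: none at 2 h, and 15 at 14 h, all above 0.

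The members with the highest and the lowest LFC at 2 h differed little between groups. Psmc6, an ATPase of the base, had 244, 210.0, 231 and 215 CPM with vehicle in replicates 2, 3, 5 and 6, and 245, 223, 265 and 270.4 CPM with IFN-β (LFC 0.16 ± 0.089 SE, adjusted p = 0.44). Psmd7, a scaffold of the lid beside its deubiquitinase, had 189.5, 165, 199.9 and 186 CPM with vehicle and 209.5, 192, 212 and 208 CPM with IFN-β (LFC 0.15 ± 0.08, adjusted p = 0.41). In both the groups overlapped, and replicate 3 was the lowest of each group.

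Psma3, of the α ring, had 199, 158, 203 and 186 CPM with vehicle and 215, 179.7, 229 and 196 CPM with IFN-β (LFC 0.14 ± 0.11, adjusted p = 0.65). At the other end, Psmc1 had 229, 199, 221 and 225 CPM with vehicle and 215, 200.1, 206 and 219 CPM with IFN-β (LFC -0.056 ± 0.075, adjusted p = 0.82). The groups overlapped in both genes.

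Psma1 of the α ring had 196, 174, 176 and 171 CPM with vehicle and 191, 159.6, 172 and 181 CPM with IFN-β at 2 h (LFC -0.023 ± 0.083). Psmd13 of the lid had 215, 173, 201 and 205 CPM with vehicle and 212, 171, 194 and 207 CPM with IFN-β (LFC -0.019 ± 0.098). Both overlapped between groups as well.

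Replicate 3 stood apart at 2 h. It was the lowest library of the vehicle group for 27 of 34 members and of the IFN-β group for 28, and the replicate numbers paired the cultures. With the replicate number as a block, 3 members were called higher at 2 h, namely Psma3, Psmc6 and Psmd7, at adjusted p-values of 0.028, 0.019 and 0.016. The same blocked test called 15.9% of all genes higher, so that 3 of 34 members is a smaller share than that of all genes. Without both libraries of replicate 3, again 0 members were called.

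After 14 h of IFN-β the footprints on constitutive subunits were higher by small amounts, relative to all footprints of a library. edgeR called 15 of 34 members higher (44.1%) and 0 lower, where 26.2% of all 12113 genes tested were called higher and 26.3% lower. For the members, 0 had an unadjusted p under 0.05 in the lower direction, and DESeq2 called 16 higher and 0 lower. The LFCs ran from -0.11 for Psma6 to 0.32 for Psmb2, a range of 0.929-fold to 1.25-fold, with a median of 0.14 beside 0.003 over all genes. The LFC was above 0 in 31 of 34 members, and in 6095 of all 12113 genes tested. With the replicate block, 23 members were called higher, where 31.8% of all genes were, and 1 lower (Psma6), where 31% were.

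**Figure D2:**
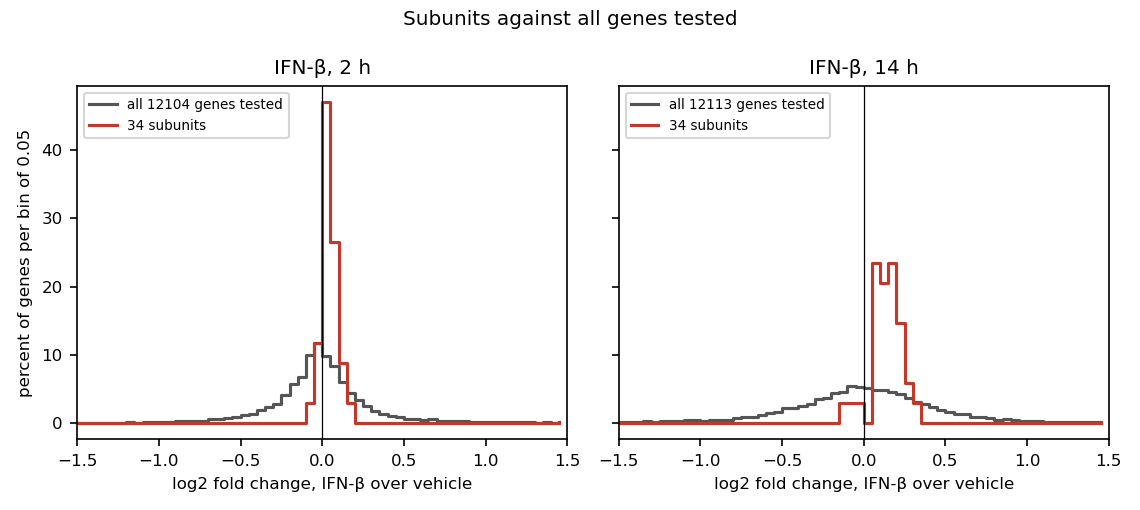
Distribution of the LFC of footprints (x axis, log2, bins of 0.05, drawn from -1.5 to 1.5) over all genes tested (grey) and over the 34 subunits (red), as percent of genes per bin. At 14 h the genes tested have a median of 0.003 and the subunits, with a median of 0.14, lie between -0.11 and 0.32, well inside the spread of all genes.

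As a share of all footprints, the 34 members took 0.757% to 0.787% of each vehicle library at 14 h and 0.814% to 0.862% of each IFN-β library. The groups did not overlap in this share. At 2 h the vehicle libraries had a mean share of 0.719% ± 0.045 (SD, n = 4), and the IFN-β libraries 0.7196% ± 0.037. Taken gene by gene at 14 h, every IFN-β library lay above every vehicle library for 13 of 34 members, against 22.4% of all genes tested. CPM and shares are relative to the other footprints of a library, and footprints per cell were not measured. The paper reports lower global protein synthesis after long exposure to IFN-β. A higher share therefore need not mean more footprints per cell. In bulk cultures, a change in the kinds of cells and a change within cells cannot be told apart either.

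Within the β ring, 4 of 7 subunits were called higher at 14 h, where 26.2% of all genes tested were, with a median LFC of 0.17. The same share stands beside the counts of the other subcomplexes below. These counts rest on few genes, and subcomplexes were not compared by a test. The leading gene was Psmb2 (chr4:126677630-126709714 in GRCm38, plus strand), a structural β subunit without an active site. It had 262, 258, 233 and 242 CPM with vehicle in replicates 1 to 4 and 298, 308, 323 and 314 CPM with IFN-β. The IFN-β libraries were all above the vehicle libraries, and the LFC was 0.32 ± 0.055 (adjusted p = 0.00031).

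Psmb4 (chr3:94884093-94886961, minus strand), another structural subunit, had 306, 319, 319 and 315 CPM with vehicle and 377, 388, 386 and 396 CPM with IFN-β. Here too the groups did not overlap (LFC 0.299 ± 0.046, adjusted p = 0.00014). Psmb1, also structural, followed with an LFC of 0.19 ± 0.054. Psmb3, the remaining structural subunit, had 116, 138, 137 and 144 CPM with vehicle and 141, 149, 148 and 157 CPM with IFN-β, an LFC of 0.15 ± 0.068 that did not pass (adjusted p = 0.077, and 0.0048 with the block).

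The catalytic subunits differed from each other in their calls, although differences between genes were not tested. Psmb6 (chr11:70525367-70527858, plus strand), which cleaves after acidic residues, had 221, 255, 256 and 257 CPM with vehicle and 256, 287, 280.3 and 291 CPM with IFN-β, and was called higher (LFC 0.17 ± 0.063, adjusted p = 0.034). Psmb7 (chr2:38588036-38644087, minus strand), with trypsin-like activity, had 288, 308, 299.9 and 296 CPM with vehicle and 305, 322, 335 and 336 CPM with IFN-β (LFC 0.12 ± 0.051, adjusted p = 0.057, and 0.0057 with the block). Psmb5 (chr14:54614119-54618022, minus strand), with chymotrypsin-like activity, had 126, 112, 112 and 114 CPM with vehicle and 128, 119.5, 119.6 and 121 CPM with IFN-β. For Psmb5 the test made no call with the block or without it, and the LFC of 0.071 ± 0.056 had a 95% interval of -0.051 to 0.19.

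The α ring, which gates entry into the barrel, held the member with the lowest LFC at 14 h beside several that were called higher. Psma3, Psma4 and Psma5 were called higher out of 7 tested, where 26.2% of all genes were, with a median LFC of 0.15 over the ring. Psma4 (chr9:54950790-54958030, plus strand) had 147, 141, 147 and 139 CPM with vehicle and 158, 171, 187 and 177 CPM with IFN-β, with no overlap (LFC 0.28 ± 0.058, adjusted p = 0.0015). Psma3 had 199, 226, 225 and 209 CPM with vehicle and 224, 250.1, 272 and 264 CPM with IFN-β, where the lowest IFN-β library lay just below the highest vehicle library (LFC 0.24 ± 0.068, adjusted p = 0.01). Psma5 was close to the threshold (LFC 0.24 ± 0.093, adjusted p = 0.046), and Psma2 and Psma7 had LFCs of 0.15 ± 0.075 and 0.087 ± 0.059 without a call, although Psma2 was called higher with the block (adjusted p = 0.0053).

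Psma6 (chr12:55384222-55418454, plus strand) had the lowest LFC of all members. It had 363, 346, 326 and 334 CPM with vehicle and 312, 312, 336 and 312 CPM with IFN-β. Replicate 3 of the IFN-β group lay within the vehicle range, so that the groups overlapped (LFC -0.11 ± 0.053, adjusted p = 0.11). With the replicate block Psma6 was called lower (adjusted p = 0.033). Psma1, at 179.7, 181, 187 and 173 CPM with vehicle and 191, 184, 198 and 179 CPM with IFN-β, had an LFC of 0.06 ± 0.053.

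In the base, the 6 ATPases thread substrates into the barrel. Psmc2, Psmc3 and Psmc5 were called higher, at LFCs of 0.15 ± 0.05, 0.17 ± 0.053 and 0.16 ± 0.048. Psmc4 had 223, 237, 248 and 253 CPM with vehicle and 221, 221, 238 and 248 CPM with IFN-β, and its overlapping groups gave an LFC of -0.049 ± 0.059. Psmc1 and Psmc6 were not called, at 0.13 ± 0.06 and 0.057 ± 0.051, and with the block Psmc1 was called higher (adjusted p = 0.0048).

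The other subunits of the base bind ubiquitin or the factors that carry it. Psmd1 and the ubiquitin receptor Psmd4 were called higher, both at an LFC of 0.23, with SEs of 0.062 and 0.0595. Psmd2, the docking site of shuttle factors (chr16:20651652-20663414, plus strand), had 434, 453, 456 and 468 CPM with vehicle and 471, 475, 513 and 501 CPM with IFN-β. Its groups did not overlap, yet the call was missed at an LFC of 0.11 ± 0.051 (adjusted p = 0.074, and 0.0074 with the block).

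Of the 8 lid subunits, Psmd3, Psmd8 and Psmd11 were called higher, where 26.2% of all genes tested were. Psmd3 led with an LFC of 0.25 ± 0.047 (adjusted p = 0.00064), ahead of Psmd11 at 0.18 ± 0.0496 and Psmd8 at 0.15 ± 0.052. Psmd6 had 253, 260.5, 273 and 243 CPM with vehicle and 226, 253, 264 and 238 CPM with IFN-β, and its groups overlapped (LFC -0.068 ± 0.06, adjusted p = 0.37). Psmd7, Psmd12, Psmd13 and the deubiquitinase Psmd14 lay between 0.081 and 0.12 without a call, and the block called Psmd7, Psmd12 and Psmd14 higher (adjusted p = 0.0078, 0.042 and 0.022). The 3 assembly chaperones Psmd5, Psmd9 and Psmd10, which leave the finished particle, had LFCs of 0.063, 0.13 and 0.062, and none of them was called.

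**Figure D3:**
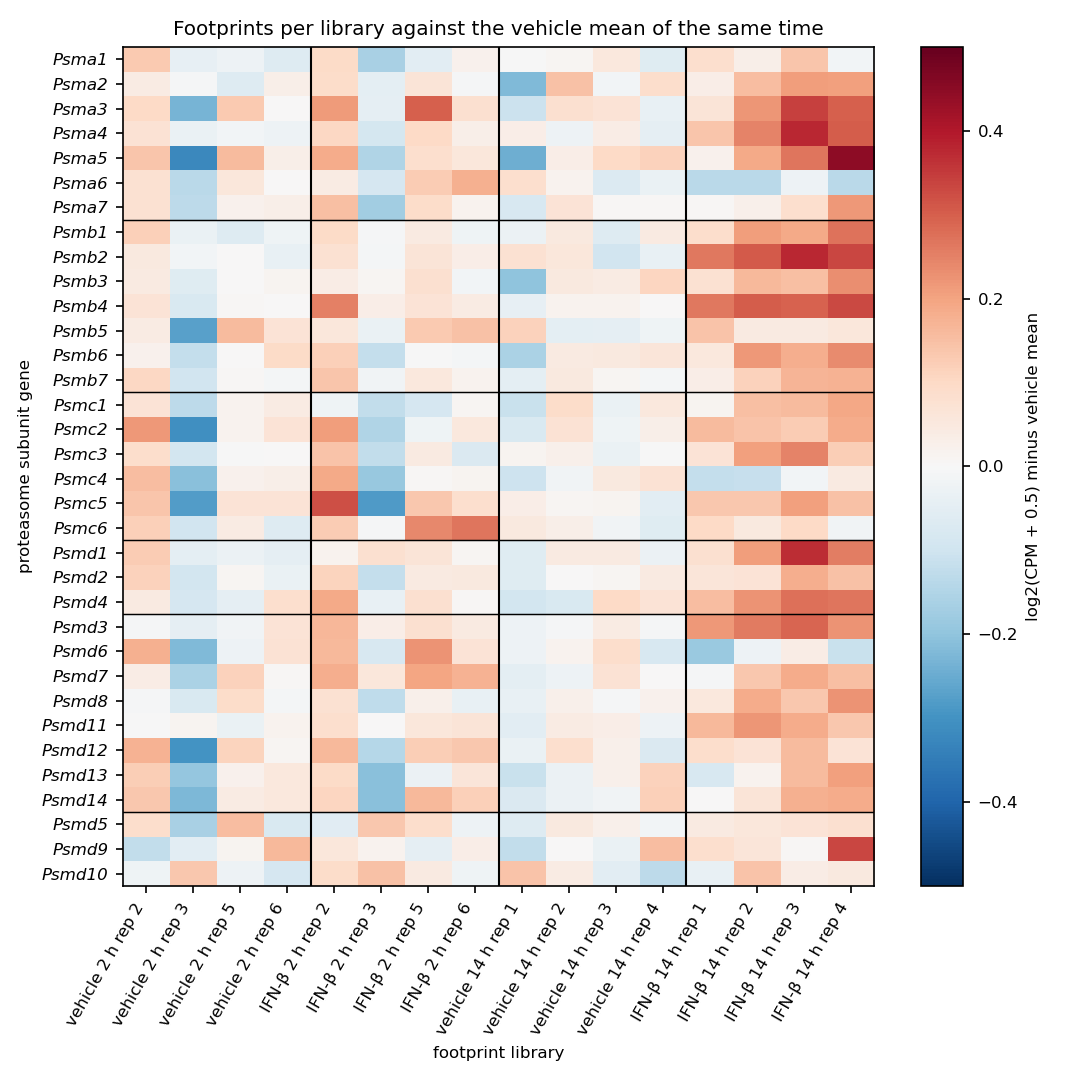
Footprints of the 34 subunits (y axis, grouped by subcomplex) in the 16 libraries (x axis), as log2(CPM + 0.5) minus the vehicle mean of the same time; red is above and blue below that mean. Replicate 3 at 2 h is blue or pale for most subunits in both groups, being the lowest of its group for 27 and 28 of them, and the IFN-β libraries at 14 h are red for most, with Psma6, Psmc4 and Psmd6 as exceptions.

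Replicate 1 at 14 h was the lowest library of its group for 22 of 34 members with vehicle and for 25 with IFN-β. Without both of its libraries, 16 members were called higher and 0 lower. Leaving out 1 library at a time gave 11 to 18 members called higher, and 10 of the 15 were called in each of the 8 fits: Psma3, Psma4, Psmb1, Psmb2, Psmb4, Psmc5, Psmd1, Psmd3, Psmd4 and Psmd11.

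The change at 14 h was compared with that at 2 h in one fit over 16 libraries. Each time had its own set of cultures with its own vehicle group, so exposure time and set of cultures cannot be told apart here. edgeR called 2 of 34 members higher, Psmb2 at a difference of 0.29 ± 0.078 in LFC (adjusted p = 0.01) and Psma4 at 0.25 ± 0.088 (adjusted p = 0.044). The same test called 15.4% of 12508 genes higher and 15.5% lower, so that the share of members was below that of all genes. In the lower direction 0 members were called or had an unadjusted p under 0.05, and DESeq2 called 5 higher and 0 lower. The median difference was 0.12 for members and 0.016 for all genes.

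At 2 h Psmb2 had 242, 232, 234 and 229 CPM with vehicle in replicates 2, 3, 5 and 6, and 247, 233, 245 and 240.0 CPM with IFN-β. Psma4 had 147, 137, 139 and 138 CPM with vehicle and 150.4, 132, 150.03 and 143 CPM with IFN-β. Both genes thus overlapped between groups at 2 h and were apart at 14 h. The replicate block called 12 members higher (35.3%), where 28% of all genes were, so that with it the share of members was above that of all genes. It called 2 members lower (Psma6 and Psmd6), where 27.5% of all genes were. Psmb2 kept its call without any 1 library, and Psma4 kept it in 4 of the 16 such fits.

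At 2 h the LFCs of the members spread less (SD 0.047) than their median standard error (0.083), so their order there is within estimation error. A low correlation with the LFCs at 14 h therefore cannot tell whether the responses at the 2 times are related. Across the 34 genes, which share their libraries within a time, the LFCs at 2 h and 14 h had a Pearson correlation of 0.043 and a Spearman correlation of 0.05. Psmc6 and Psmd7, which led at 2 h, had LFCs of 0.057 and 0.12 at 14 h, and Psmb2, which led at 14 h, had 0.042 at 2 h. At 14 h the 95% interval lay within 0.5 either side of 0 for the 34 members, against 48.8% of all genes tested.

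Levels were compared between genes as footprint density, the CPM per kb of CDS. At 14 h with vehicle it ranged over 8.76-fold among the 34 members, from 51.6 ± 4.28 (SD, n = 4) for Psmd10 to 452 ± 21 for Psma6. The 3 assembly chaperones were the lowest of all, at 51.6 to 61.0, and the next gene up, Psmd1, was at 111 ± 4.06. The 20S subunits had a median of 342, the base ATPases of 187 and the lid of 179. Most neighbours in this order could not be told apart: the ranges of the 4 libraries overlapped in 28 of the 33 neighbouring pairs.

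**Figure D4:**
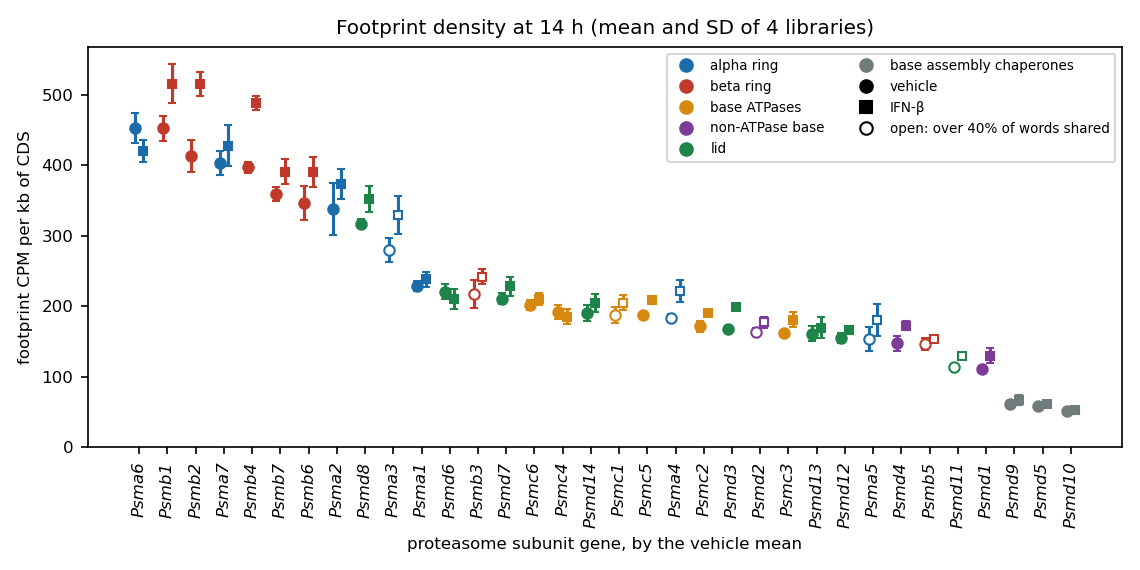
Footprint density (y axis, CPM per kb of CDS, linear from 0) of each subunit at 14 h with vehicle (circles) and IFN-β (squares), as mean and SD of 4 libraries, in the order of the vehicle means. Colours give the subcomplex, open symbols mark genes with over 40% of their 30-base words in other transcripts, and the 3 assembly chaperones lie lowest, at means of at most 66.5.

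The order also goes with copies elsewhere in the genome. Of the 30-base words in the CDS of each member, 16 genes shared none with transcripts of other genes, while Psma3, Psma5, Psmb3 and Psmb5 shared over 80% of theirs, nearly all with processed pseudogenes. Within the 20S core these 4 genes had a median density of 185 at 14 h with vehicle, beside 403 for the 5 subunits with under 5% shared. The reads were aligned with the standard options of Bowtie, which report a single alignment for a read that fits several places equally well, so the levels of these 4 genes, and those of Psma4 (60.1% shared), Psmc1 (49.7%), Psmd11 (49.2%) and Psmd2 (45.8%), are uncertain. Psmb2, Psmb4, Psmd3 and Psmd4 shared none.

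The constitutive catalytic subunits were next set beside the immunoproteasome subunits that replace them. Psmb8, Psmb9 and Psmb10 were called higher at both times, at LFCs of 4.51 ± 0.38, 3.53 ± 0.28 and 2.13 ± 0.15 at 2 h and 9.08 ± 0.13, 6.18 ± 0.14 and 3.85 ± 0.085 at 14 h. In density, Psmb5 went from 147 ± 8.17 (SD, n = 4) with vehicle to 154 ± 5.26 with IFN-β at 14 h, while Psmb8 went from 0.809 ± 0.35 to 416 ± 33.3. Psmb6 went from 346 ± 24.3 to 390.3 ± 21.8 and Psmb9 from 3.45 ± 1.21 to 263 ± 28. Psmb7 went from 359 ± 9.82 to 390.5 ± 17.7 and Psmb10 from 17.5 ± 2.29 to 254 ± 14.

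The immunoproteasome gene took a larger share of each pair with IFN-β, and at 14 h no constitutive partner had a lower mean. Of the summed density of Psmb5 and Psmb8 at 14 h, Psmb8 held 0.831%, 0.429%, 0.422% and 0.479% in the vehicle libraries and 70.1%, 73.1%, 73.3% and 75.2% in the IFN-β libraries. At 2 h the range was 26.2% to 42.9% with IFN-β, against 0.883% to 5.17% with vehicle. Since Psmb5 shares 81.9% of its words with other transcripts, and Psmb8 16.3% with an antisense gene, this share is open to how such reads were counted.

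Of its pair with Psmb6, Psmb9 held 0.981% ± 0.31 (SD, n = 4) in vehicle libraries at 14 h, 40.2% ± 1.58 in IFN-β libraries at 14 h and 9.73% ± 3.36 in those at 2 h. Psmb10 held 4.64% ± 0.51 of its pair with Psmb7 with vehicle and 39.4% ± 0.62 with IFN-β at 14 h, and 22.2% ± 3.94 with IFN-β at 2 h. In these pairs the constitutive gene still had the higher density in every IFN-β library. Psmb6 shares 18.4% and Psmb7 29.8% of its words with other transcripts, and Psmb9 and Psmb10 share none. The shares of these pairs are thus also open to how such reads were counted. All 6 comparisons, 3 pairs at 2 times, gave an exact two-sided permutation p of 0.0286, the smallest that 4 against 4 libraries allow, and 0.0286 after Benjamini-Hochberg adjustment over the 6. This permutation took the libraries as independent and did not use the pairing of the cultures by replicate number.

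**Figure D5:**
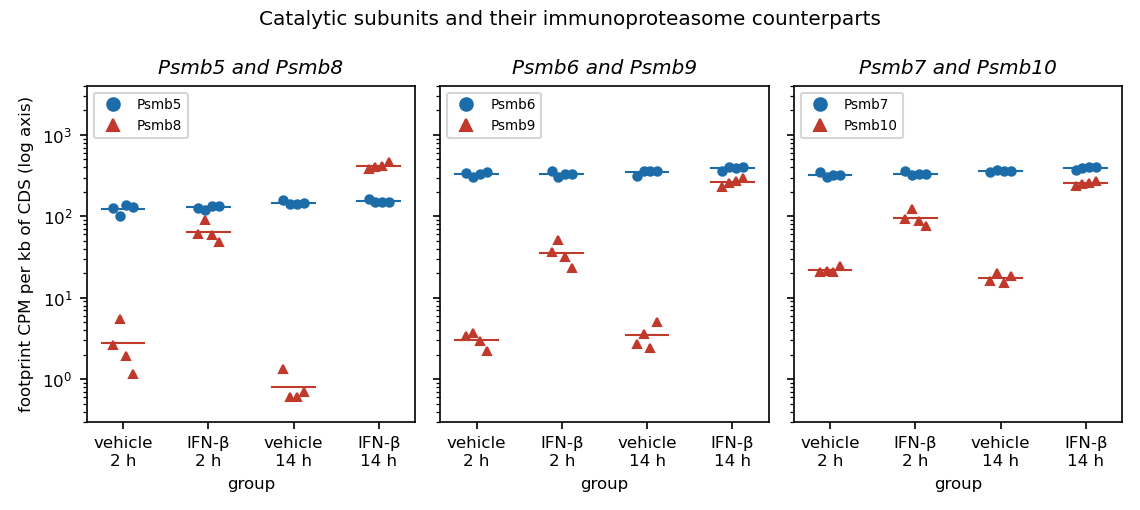
Footprint density (y axis, CPM per kb of CDS, log scale) of each constitutive catalytic subunit (blue circles) and its immunoproteasome counterpart (red triangles) in the 4 libraries of each group, with lines at the means. The means of Psmb5 run from 124 to 154 over the groups, and at 14 h with IFN-β Psmb8 lies above Psmb5 while Psmb9 and Psmb10 lie below Psmb6 and Psmb7.

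Around the constitutive particle, 40 further genes of the pathway were tested. At 2 h, 6 were called higher and 1 lower, and without the 3 immunoproteasome genes, Psme1 and Psme2 there remained 1 higher (Nfe2l2) and 1 lower (Ubqln2) of 35, where 7.25% of all genes were called. At 14 h, 14 were called higher and 11 lower, and without the 3 immunoproteasome genes and the activators Psme1 and Psme2, 9 of 35 were higher and 11 lower, with a median LFC of 0.0017. These are close to the shares over all genes tested, 26.2% higher and 26.3% lower, so the counts set the pathway apart in neither direction. Psme1 and Psme2, which open the gate of the barrel, were called higher at both times (LFC 3.28 and 2.7 at 14 h), the nuclear activator Psme3 was called lower at 14 h (-0.35 ± 0.055), and the inhibitor Psmf1 was called higher (0.39 ± 0.13).

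Among the factors that act on the constitutive particle, calls at 14 h went in both directions, as they did over all genes. The 2 deubiquitinases that bind the 19S particle reversibly were called lower, Uchl5 at an LFC of -0.75 ± 0.075 and Usp14 at -0.42 ± 0.053. Of the 5 chaperones that assemble the 20S core, Psmg1 (-0.28 ± 0.07) and Psmg2 (-0.39 ± 0.073) were called lower. Of 6 shuttle factors, which bring ubiquitinated proteins to the proteasome, Ubqln1 (-0.29 ± 0.05), Ubqln2 (-0.17 ± 0.055) and Ddi2 (-0.301 ± 0.089) were called lower and 0 higher. Ubqln2 was called lower at 2 h too (-0.36 ± 0.069).

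Among the regulators of proteasome gene expression, Nfe2l1, the factor that raises it when proteasome activity is short, was called higher at 14 h (0.28 ± 0.054). Ddi2 is also the protease that activates Nfe2l1. Nfe2l2 was called higher at 2 h (0.52 ± 0.086) and at 14 h (0.25 ± 0.053), and its adaptor for degradation, Keap1, at 14 h (0.55 ± 0.074). Of the ubiquitin-activating enzymes, Uba1 was called higher (0.42 ± 0.055) and Uba6 lower (-0.36 ± 0.078). Ecpas, which holds core and regulatory particle together, was called higher (0.42 ± 0.054). The remaining calls among these genes at 14 h were higher for the activator Psme4 (0.26), Zfand2a (0.68) and the segregase cofactor Nploc4 (0.22), and lower for the importin Ipo9 (-0.47) and the thioredoxin-like protein Txnl1 (-0.14).

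Total RNA gave little information on these genes. The median count of a member in a total RNA library was 16 at 2 h and 4 at 14 h, beside 1486 and 1722 in a footprint library, and 25 of the 35 members had a mean under 10 counts at 14 h. Psma6 alone held 85.3% and 87.3% of the members' total RNA counts, with 8359 to 18750 at 2 h and 2707 to 13096 at 14 h, and Psmc3 a further 8.97% and 10.0%. Both have a gene on the opposite strand, a processed pseudogene in an intron of Psma6 and Slc39a13 across an exon of Psmc3. Psmb7, with 1.63% and 0.47% of the members' total RNA counts, also has such a gene, Nek6, with an exon overlap. In all, 13 of the 35 members have a gene on the opposite strand, 8 of them with an exon overlap. Besides Psma6, Psmc3 and Psmb7 no member exceeded 155 total RNA counts in a library. The total RNA libraries were directional, the strand setting of the counting is not given in the sources used here, and its part in these counts was not tested.

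For total RNA, 24 members could be tested at 2 h and 10 at 14 h. edgeR called 0 of them at either time, against 0.799% and 6.3% of all genes tested, with 0 at an unadjusted p under 0.05 and 0 called by DESeq2. TE, the change of footprints beyond that of total RNA, was tested for 34 members at each time, leaving out Psma8, which had no footprints to compare at 2 h. Its filter took footprint and total RNA libraries together, so members with too few total RNA counts passed through their footprints. edgeR called 0 at an adjusted p under 0.1, against 0.815% and 8.46% of all genes, and DESeq2 called 0. Members with so few total RNA counts could hardly be called, so the absence of calls does not show an unchanged TE. At an unadjusted p under 0.05 there were Psma1 at 2 h (lower) and Psma3 at 14 h (higher). Psma1 rests on total RNA counts of 0, 3, 0 and 1 with vehicle and 4, 11, 1 and 2 with IFN-β at 2 h. With so few total RNA counts, the higher footprints at 14 h cannot be divided into a part from RNA level and a part from translation.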

How the data were processed

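Footprint and total RNA libraries came from the same NSC lysates, 16 of each. The authors trimmed adaptors with Trim Galore 0.4.4, aligned reads to the mouse transcriptome (mm10) with Bowtie 0.12.7 at its standard options, which report a single alignment per read, removed duplicates, and deposited raw counts of reads, per CDS for footprints and per gene for total RNA. Duplicate removal without molecular identifiers can understate abundant genes. Depth per library is given in the report and limits total RNA most.

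From these counts, genes that reached 10 counts in 4 or more libraries were tested with edgeR 4.0.16 (R 4.3.3, TMM factors, quasi-likelihood test, Benjamini-Hochberg adjustment over all genes tested), separately for each time, for both times in one fit over 16 libraries, and for TE as an interaction. The p thresholds were 0.05 and, for TE, 0.1. DESeq2 1.42.0, library totals alone, no filter, the replicate block and leaving out libraries were alternatives. CPM is scaled by TMM within each time, and SE and intervals (95%) are those of the fit. The edgeR fit of IFN-β against vehicle was run on simulated counts of unpaired libraries, and its pass mark covered only changes larger than those of the members. The block, the comparison of times and TE were not simulated. Gene models are GENCODE release M21 on GRCm38, and CDS length is the union of annotated coding exons.

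The members and lists were chosen with earlier results of these data known. Values per library are given for the 3 catalytic subunits, the 3 members with the highest and the 3 with the lowest LFC at each time, the members called between times, and members not called where most of their subcomplex was; other pathway genes are named where called, and 1 list of the pathway is not reported here. Replicate numbers were taken from the labels. Deviations of same-numbered libraries from their group means correlated at 0.345 to 0.821 at 2 h and at 0.203 to 0.434 at 14 h, so that the numbers were taken to pair the cultures.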

Additional observations from a re-analysis of the deposited data

Results flagged for a closer look

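In groups of 4 libraries, 5 values lay far from the other 3 by Dixon's test, of 72 groups tested, where chance alone gives about 1 in 20. Psmb4 was at 354 CPM in replicate 2 of IFN-β at 2 h. Psmb5 was at 126 CPM with vehicle and at 128 CPM with IFN-β in replicate 1 at 14 h, in both groups the highest. Psmb6 was at 221 CPM in replicate 1 of vehicle at 14 h, the lowest of its group. Psma6 was at 336 CPM in replicate 3 of IFN-β at 14 h, where the others had 312.

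For 2 members the response at 14 h differed from that at 2 h by edgeR's test of the difference, by 0.29 on the log2 scale for Psmb2 and by 0.25 for Psma4. Exposure time and set of cultures cannot be told apart in this test. Their values per library are in the report.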

How the results depend on the processing

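With the replicate block, which uses the pairing of the cultures, 3 members were called higher at 2 h, 23 higher and 1 lower at 14 h, and 12 higher and 2 lower in the comparison of 14 h with 2 h. Over all genes the block raised the calls from 878 to 3538 at 2 h, from 3176 higher and 3185 lower to 3856 and 3753 at 14 h, and from 1926 higher and 1941 lower to 3499 and 3445 between times. For the comparison of times, DESeq2 called 5 members higher, no filter on low counts left 1, and leaving out both replicate 3 libraries at 2 h, an alternative chosen after seeing the data, gave 5. The cause was not tested. Leaving out 1 library at a time gave 11 to 18 members called higher at 14 h, with 11 without replicate 2 or replicate 4 of IFN-β, and 1 to 3 in the comparison of times; 0 were called lower in either. At 14 h, 10 members were called with no filter, 15 with library totals alone and 16 with DESeq2. Leaving out 1 library at a time, the median LFC of members ran from 0.0021 to 0.073 at 2 h, 0.11 to 0.17 at 14 h and 0.080 to 0.15 between times. With library totals alone it was -0.0034 at 2 h, beside -0.058 over all genes, and 0.13 at 14 h. For total RNA and TE, 0 members were called under each alternative run, but with library totals alone the median of all genes moved to 0.23 in total RNA at 2 h and to -0.38 in TE. Total RNA counts of members are too few for a limit on their RNA change.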
